A study of Mus musculus with 65 samples.

Results

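The regions described here are stretches of chromatin that carried the repressive mark H3K27me3 in mouse embryonic stem cells (mESC) and held less of it after 6 days of differentiation. They were chosen by their H3K27me3 reads in the authors' deposited table: log2 of mean day 6 scaled reads + 1 over mean day 0 scaled reads + 1 had to be -0.6 or less, and both day 6 libraries had to lie below both day 0 libraries. The rule found 713 of 10491 regions. The mirrored rule (0.6 or more) found 68 regions that gained the mark, and 9710 regions met neither. All 713 regions at the threshold also met the condition on library order, and 709 had a false discovery rate below 0.05 in the authors' deposited table. That rate compares the same libraries that chose the regions, so it is no separate support for them. Because the ratio chose the regions, their H3K27me3 values are given below as a description and were not tested.

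H3K27me3 is trimethylation of lysine 27 of histone H3. Polycomb repressive complex 2 (PRC2) writes it, largely at CpG-rich promoters of developmental genes, and in embryonic stem cells it keeps many lineage regulators silent until differentiation. Retinoic acid is a signal that binds nuclear receptors on response elements, switches on HOX genes and its own degrading enzymes, and drives embryoid bodies toward neural and other fates. H3.3 is the histone H3 variant that is deposited outside replication, often at active or poised genes.

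Day 0 cells were wild-type mESC grown with leukemia inhibitory factor (LIF). Day 6 cells were embryoid bodies of the same wild-type cells, cultured without LIF and with 10 µM all-trans retinoic acid. Day 3 cells, used for RNA only, were also given 10 µM retinoic acid. Chromatin immunoprecipitation (ChIP) with antibodies to H3K27me3, H3.3K27me3, H3.3 and H3 was done in 2 biological duplicates for each antibody and day, 16 libraries in all, each sequenced in 3 runs that were joined. The deposited tables name the H3K27me3 and H3 antibodies after H3.1, yet neither antibody is labelled as specific for that variant. RNA came from wild-type cells at days 0, 3 and 6 in a 2019 series (2 samples a day) and, in a 2020 series, from wild-type cells (1 sample at day 0 and 2 at day 6), H3.3A knockout cells and H3.3K27A cells (2 samples each at days 0 and 6). The 2 edited lines were made with CRISPR/Cas9 and were cultured and differentiated in the same way, and K27A means alanine in place of lysine 27; the labels do not say how many clones each line is.

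ChIP libraries held 30449762 to 74229689 tags, with the lowest depth in H3.3K27me3 at day 6 (30449762 and 34195568 tags, against 71130843 and 49872422 at day 0). RNA libraries held 6965704 to 22032871 reads assigned to genes. Of 24 tested pluripotency factors, all 24 fell by day 6 in 2019 and again in 2020, and their summed level went from 11100-11500 CPM (a gene's reads scaled to the library's total) to 622-627 CPM in 2019. The endoderm list, by contrast, summed to 31600-50100 CPM in the knockout at day 6, against 10800-13300 CPM in wild type and 8390-10500 CPM in H3.3K27A.

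The promoter sequences of 4 genes in the regions with the lowest ratios are shown because the loss lay over CpG-rich gene starts. Each window runs from 250 bases before to 50 bases after a gene's start, in the gene's direction, as given by RefSeq for GRCm38.p6, the assembly called mm10 in the files. Capitals mark CpG dinucleotides, the usual site of DNA methylation and of recruitment of Polycomb complexes.
Tnrc18, chr5:142817613-142817912, minus strand: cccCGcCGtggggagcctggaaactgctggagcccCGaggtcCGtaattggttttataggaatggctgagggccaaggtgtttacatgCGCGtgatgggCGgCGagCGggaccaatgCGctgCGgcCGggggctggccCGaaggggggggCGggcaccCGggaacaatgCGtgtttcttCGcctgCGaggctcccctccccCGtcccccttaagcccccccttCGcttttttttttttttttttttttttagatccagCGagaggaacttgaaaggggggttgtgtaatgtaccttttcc
Dhrs3, chr4:144892577-144892876, plus strand: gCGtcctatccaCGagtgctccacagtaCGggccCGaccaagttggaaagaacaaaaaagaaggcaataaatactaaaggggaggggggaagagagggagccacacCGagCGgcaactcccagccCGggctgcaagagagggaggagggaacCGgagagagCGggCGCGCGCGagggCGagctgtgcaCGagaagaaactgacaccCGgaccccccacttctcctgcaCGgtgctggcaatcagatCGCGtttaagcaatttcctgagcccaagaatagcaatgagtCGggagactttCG
Cyp26b1, chr6:84593761-84594060, minus strand: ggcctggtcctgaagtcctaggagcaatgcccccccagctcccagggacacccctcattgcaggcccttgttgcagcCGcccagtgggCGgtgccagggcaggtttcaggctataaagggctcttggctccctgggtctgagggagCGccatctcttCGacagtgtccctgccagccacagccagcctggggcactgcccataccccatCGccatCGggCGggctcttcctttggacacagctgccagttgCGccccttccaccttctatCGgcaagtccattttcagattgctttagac
Id3, chr4:136143572-136143871, plus strand: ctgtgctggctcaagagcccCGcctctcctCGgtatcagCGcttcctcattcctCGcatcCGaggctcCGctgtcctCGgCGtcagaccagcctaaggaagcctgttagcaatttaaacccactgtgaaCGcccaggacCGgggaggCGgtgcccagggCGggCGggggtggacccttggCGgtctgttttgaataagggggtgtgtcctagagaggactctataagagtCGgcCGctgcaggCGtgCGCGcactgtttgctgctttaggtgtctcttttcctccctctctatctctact
The Tnrc18 and Dhrs3 windows hold 21 CpGs each, that of Id3 holds 19 and that of Cyp26b1 holds 9. The median was 19 CpGs over the 788 RefSeq windows that overlapped a lost region, and 7 over all 32851 windows.

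The second set of sequences shows where the letters of a retinoic acid response element occur. The motif searched was a direct repeat with a 5-base spacer (DR5): base 1 of each half-site could be A or G and base 3 G or T, the other bases were those that all matches printed here share, and both strands were searched. Capitals mark the half-sites of matches in the regions of retinoic acid genes and HOX clusters.
Cyp26a1, first match, chr19:37697776-37697792, minus strand: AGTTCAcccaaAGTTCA
Cyp26a1, second match, chr19:37695909-37695925, plus strand: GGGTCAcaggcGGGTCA
Meis2, chr2:116071242-116071258, minus strand: AGGTCAaaaacAGTTCA
Stra6, chr9:58150653-58150669, minus strand: AGGTCAcacacAGTTCA
HOXA, first match, chr6:52153426-52153442, minus strand: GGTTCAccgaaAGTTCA
HOXA, second match, chr6:52175533-52175549, minus strand: GGTTCAagaagAGTTCA
HOXB, first match, chr11:96372776-96372792, plus strand: GGTTCAtagagAGTTCA
HOXB, second match, chr11:96341236-96341252, plus strand: GGTTCAagaagAGTTCA
HOXB, match 3, chr11:96212029-96212045, minus strand: AGGTCAgggaaGGGTCA
HOXC, chr15:103061714-103061730, plus strand: GGTTCAccgagAGTTCA
HOXD, chr2:74741540-74741556, plus strand: GGTTCAagcagAGTTCA
The first Cyp26a1 match lies 14 bp from that gene's start, the first HOXA match 3468 bp from the start of Hotairm1, and the first HOXB match 7032 bp from the start of Hoxb1. In the 4 HOX cluster regions, 6 of 7 matches were of one form, GGTTCA followed by AGTTCA, as were 7 of the 62 matches over all lost regions, those 6 included. Lost regions as a whole were near the table in this motif: 7.57% of them held a match against 7.42% of all regions, or 0.45 against 0.34 matches per 100 kb. Among RefSeq promoter windows, 2 of the 788 overlapping a lost region (0.254%) and 32 of all 32851 (0.0974%) held one. A match describes letters only.

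The lost regions were narrower and richer in CpG than the table as a whole, and more of them held a gene start. Their median width was 12.1 kb, against 15.6 kb over the table, and together they covered 13.77 Mb of 265.8 Mb. CpG density had a median of 19.35 per kb against 10.37 per kb, and GC content 48.0% against 42.77%. A promoter annotation in the authors' deposited table was held by 81.8% of lost regions and by 48.7% of all. An annotated gene start lay in or within 1 kb of 80.5% of lost regions and 46.7% of all, which gave 781 genes. When the table was split into 4 equal bins of CpG density, the bin with the most CpG (15.8 to 77.3 per kb) had 19.4% of its regions lost, and the bin with the least had 0.267%. These shares rise with CpG at each step, from 7 to 35 to 162 to 509 lost regions. The 68 regions that gained the mark had these traits too: their median width was 7760 bp, their median CpG density 21.73 per kb, 83.8% had a promoter annotation, and 55 of them fell in the bin with the most CpG.

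The share of regions that were lost differed between chromosomes. It was 52.6% on the X chromosome (20 of 38 regions), 0.645% on chromosome 8 (7 of 1085) and 3.16% on chromosome 14 (29 of 918), and ran from 5.87% to 10.2% on the other autosomes. Chromosomes 8 and 14 also held the most regions of the table. A peak of the H3 antibody in both day 0 duplicates overlapped 80.5% of regions on chromosome 8 and 14.6% on chromosome 14, against 8.41% on the other autosomes together, among which chromosome 17 had 16.4%. Median CpG density was 7.65 per kb on chromosome 8 and 5.99 per kb on chromosome 14, against 11.5 per kb on the other autosomes. The 38 regions of X had a median of 22.0 per kb, and 63.2% held a gene start, against 50.2% on the other autosomes. Their median log2 ratio was -0.633, against -0.173. The part of these differences in the share lost was not tested.

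**Figure D1:**
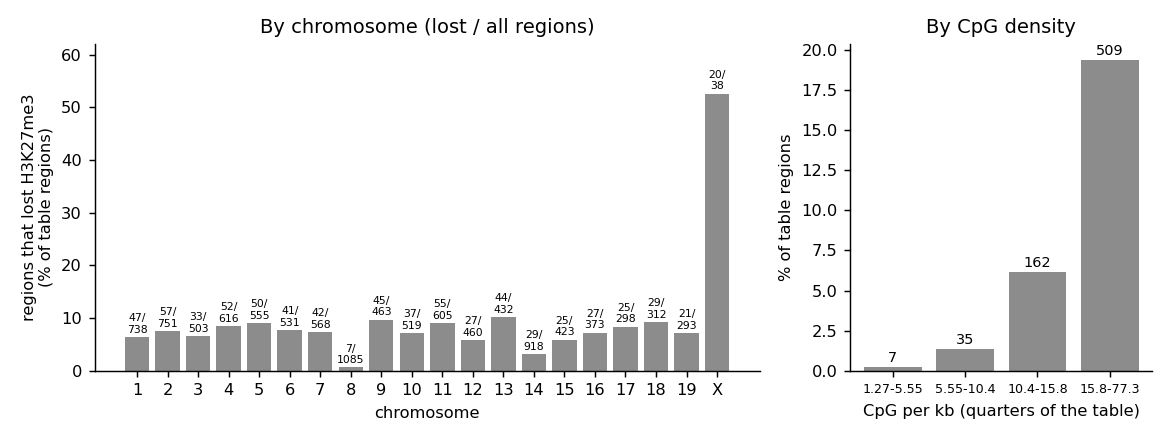
Share of the table's H3K27me3 regions that lost the mark by day 6, by chromosome (left, y axis in % of regions, lost and total counts above the bars) and by 4 bins of CpG density (right, counts of lost regions above the bars). The X chromosome stands at 52.6%, chromosome 8 at 0.645%, and the bin richest in CpG at 19.4%.

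Before differentiation the lost regions were denser in H3K27me3 than the table, and afterwards they were close to it. Their median was 44.0 scaled reads per kb at day 0 and 25.2 at day 6, while the median of all regions was 29.9 and 27.2. The median log2 ratio of lost regions was -0.73 and that of all regions -0.13. With each ratio taken relative to the latter value, 352 regions met the rule. A filtered H3K27me3 peak in both duplicates overlapped 96.6% of lost regions at day 0 and 26.2% at day 6. Over all regions the shares were 62.05% and 42.01%. These peaks come from the same libraries that chose the regions, so their fall at lost regions is no separate support. Values at the threshold ran on without a gap: just inside lay Ankrd33b (-0.6003), Igf2 (-0.6007) and Tnc (-0.6011), and just outside a region near Mir692-1 (-0.5999), Spock1 (-0.5995) and Lamb1 (-0.5995).

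The lowest ratio was at Tnrc18, a gene for a chromatin protein with trinucleotide repeats (chr5:142812543-142824288). It had 690 and 731.73 scaled reads at day 0 and 182.96 and 133.05 at day 6, a log2 ratio of -2.16. Dhrs3, which encodes a retinaldehyde reductase that limits retinoic acid synthesis, followed with 196 and 198.5 reads at day 0 and 65.15 and 33.99 at day 6 (chr4:144891647-144895308, -1.97). Cyp26b1, a cytochrome P450 that degrades retinoic acid, went from 1378 and 1517 to 531.91 and 446.75 (chr6:84572893-84595848, -1.56). Both day 6 libraries were far below both day 0 libraries in these regions. Cyp26a1 shares a region with Cyp26c1 (chr19:37681133-37737346), which went from 2497 and 2646.69 to 1301.22 and 1192.62 (-1.04).

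The other regions among the 12 lowest ratios were a region near Cxcr3 on the X chromosome (-1.97), 2 regions of Bcor (-1.80 and -1.61), Gdpd5 (-1.56), Selenon (-1.53), Arhgef33 with Gm10190 (-1.49), Nhsl2 (-1.47), the HOXB cluster (-1.43) and Id3 (-1.42). Bcor encodes a subunit of a variant Polycomb repressive complex 1 (PRC1), and Id3 an inhibitor of basic helix-loop-helix factors. Bcor and Nhsl2, like the region near Cxcr3, are on the X chromosome, so 4 of these 12 regions are X-linked.

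All 39 HOX genes, the homeobox genes that pattern the body axis, lay in lost regions, each cluster as 1 region. HOXB is the one with the lowest ratio, with 18444 and 20873 scaled reads at day 0 and 7754.7 and 6859.5 at day 6 over 254.3 kb. HOXA had 16987 and 18851 reads, then 8582.9 and 7598.6 (-1.15), and HOXD 12895 and 14212, then 7397.7 and 6405 (-0.97). HOXC had 18661 and 20729, then 11098 and 9971.2 (-0.90). By total scaled reads at day 0, which grow with the width of a region, they were the 4 highest of all those lost. Lost regions had a median width of 12.1 kb. Per kb, lost regions had a median of 44.0 and a maximum of 114 scaled reads at day 0, and the named regions were not ranked on that measure. Next by total reads were the imprinted Cdkn1c and Phlda2 region on chromosome 7 (-0.64) and the gamma protocadherin cluster on chromosome 18 (-0.74). Each of these 6 still overlapped a filtered H3K27me3 peak in both day 6 duplicates.

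**Figure D2:**
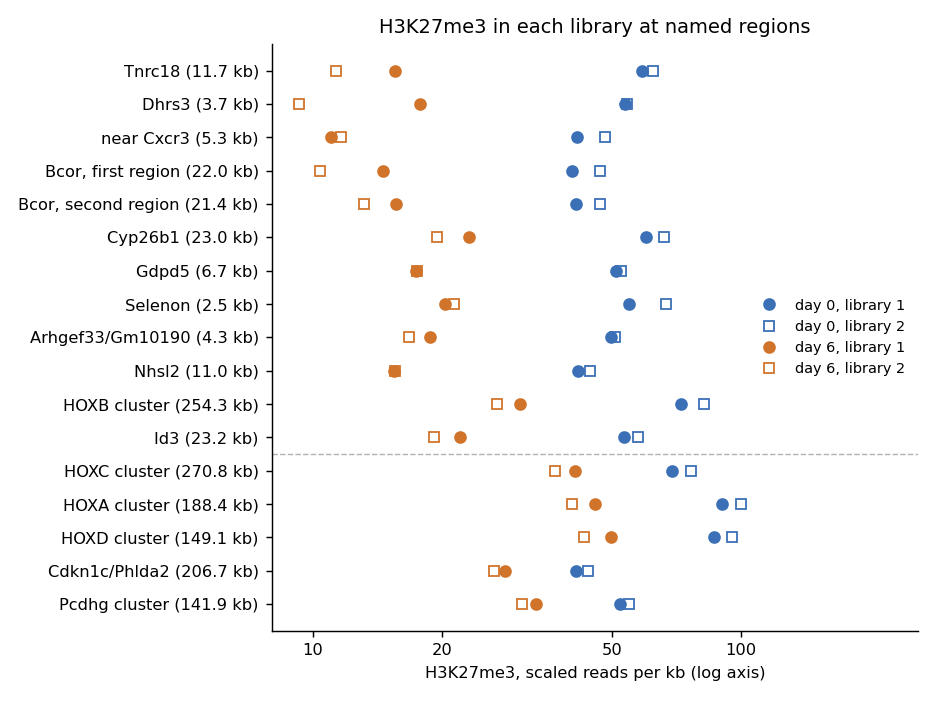
H3K27me3 in every library, in scaled reads per kb on a log axis. Above the dashed line are the 12 regions with the lowest ratio, HOXB among them. Below it are the other 5 of the 6 regions with the most total day 0 reads, a ranking not made per kb. Blue points are day 0, orange points day 6, and filled and open symbols the 2 duplicates; the days do not overlap in any region, which the rule required.

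H3.3K27me3, measured with a separate antibody and in separate libraries, was also found at fewer of these regions by day 6. Peaks in both duplicates overlapped 387 of 713 lost regions (54.3%) at day 0 and 29 (4.07%) at day 6. Over the whole table the shares were 34.0% and 21.0%. A peak at day 0 only was held by 50.6% of lost regions and 21.6% of the table, and a peak at both days by 3.65% and 12.5%. The day 6 libraries are shallower, for the lost regions and for the table alike. In a single day 6 library 15.8% (replicate 1) or 7.15% (replicate 2) of lost regions had a peak, against 41.2% and 28.1% of the table. These are counts of peaks, and no test was made.

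The 26 lost regions that kept an H3.3K27me3 peak at both days were wide, as such regions were over the whole table. Their median was 40.1 kb, against 18.3 kb for the 361 that had a peak at day 0 only. Over the table these medians were 46.7 kb and 19.4 kb. The 26 include the HOXA, HOXC and HOXD clusters, the Dlx1/Dlx2 and Dlx5/Dlx6 pairs of homeobox genes, Lhx1, Lhx2, Nr2f1, Foxd1, the cell cycle inhibitor locus Cdkn2a/Cdkn2b, Zic2/Zic5 and the alpha and gamma protocadherins. HOXB is not among them, as it had no filtered peak shared by both day 6 duplicates. Unfiltered calls did overlap it in each day 6 duplicate, with the authors' fold enrichment at most 2.82 and 2.36. The authors' fold enrichment at the HOXC region was at most 4.30 and 5.21 in the day 0 duplicates, and 2.58 and 3.01 at day 6. At Tnrc18 it was 3.02 and 2.37 at day 0, and no peak was listed there at day 6. At Cyp26b1 it was 3.02 and 3.47, again with none at day 6.

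**Figure D3:**
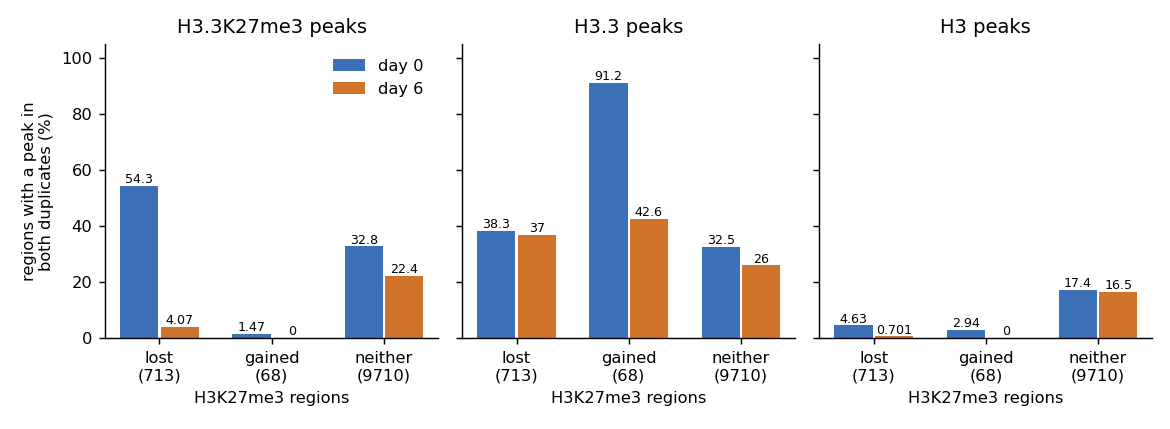
Percent of H3K27me3 regions that overlap a peak in both duplicates (y axis), for 3 antibodies, in regions that lost H3K27me3, gained it, or did neither (numbers of regions in parentheses); blue bars are day 0 and orange bars day 6. At lost regions H3.3K27me3 peaks drop from 54.3% to 4.07%, while H3.3 peaks are at 38.3% and 37.0%. At regions that did neither, H3.3K27me3 peaks are at 32.8% and 22.4% and H3.3 peaks at 32.5% and 26.0%.

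The H3.3 histone itself changed in both directions at lost regions. Peaks of H3.3 overlapped 38.3% of them at day 0 and 37.0% at day 6. Over the whole table the shares were 33.2% and 26.9%, and at regions that gained H3K27me3 91.2% and 42.6%. In the authors' H3.3 region table, 469 regions, many of them wider than the lost region they meet, overlapped 442 of the lost regions, and limma's moderated test (Benjamini-Hochberg adjusted p below 0.05 over all 14812 regions) called 129 higher at day 6 (27.5%, against 18.4% of all H3.3 regions) and 176 lower (37.5%, against 43.7%). The median log2 change was -0.05, against -0.12 over the table. The split turned under 3 alternatives. It was 38.8% higher and 30.7% lower with each library centred on its median, 32.4% and 26.8% over H3.3 regions with at least 50% of their length inside a lost region, and 33.7% and 32.0% without replicate 2 of day 6. Without replicate 2 of day 0, 24.5% were lower.

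The largest H3.3 rise at a lost region was at Dhrs3. There the H3.3 region (chr4:144891006-144934447) had 865.85 and 849 scaled reads at day 0 and 1764.9 and 1606.3 at day 6, a log2 change of 0.97 ± 0.06 (SE, limma adjusted p = 3.4e-50; the test borrows the spread of all regions). Tcf21, a transcription factor of visceral mesoderm, followed at 0.93 ± 0.10 (limma adjusted p = 3.55e-18), with 204.89 and 180 reads at day 0 and 383.84 and 350.56 at day 6. Cyp26b1 rose by 0.79 ± 0.07 (602.85 and 624, then 1093.1 and 1034.1; limma adjusted p = 3.72e-28). Meis1, which encodes a HOX cofactor, rose by 0.72 ± 0.06 (limma adjusted p = 2.75e-35). Day 6 libraries were above day 0 libraries in all 4 regions.

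The largest H3.3 falls at lost regions included Nt5e, the gene for an ectonucleotidase, at -0.80 ± 0.11 (limma adjusted p = 4.02e-12). Dnmt3b, a de novo DNA methyltransferase of early embryonic cells, had 3648.6 and 3692 reads at day 0 and 2351.4 and 2264.5 at day 6 (-0.67 ± 0.06, limma adjusted p = 1.38e-30). H3.3 at Phlda2, an imprinted growth regulator, fell by 0.64 ± 0.11 on the log2 scale (limma adjusted p = 9.9e-09). Of all 14812 H3.3 regions 18.4% were higher and 43.7% lower, the shares to read beside the counts that follow. A link between H3.3 and RNA was not tested. Of the 331 H3.3 regions whose lost region had a gene with more RNA at day 6, 107 were higher in H3.3 and 107 lower. Of the 23 whose genes were only lower or not called in RNA, with at least 1 lower, 1 was higher in H3.3 and 16 were lower. Of the 17 whose tested genes were not called in RNA, 7 were lower and the others were not called in H3.3, and of the 98 with no gene or no tested gene 21 were higher and 46 lower.

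The H3 table covered few lost regions. In it 44 regions overlapped 43 of them, and limma called 0 of the 44 higher (18% of all 6618 H3 regions) and 26 lower (59.1%, against 34.3%). At an unadjusted p below 0.05 limma had 1 of the 44 higher. EdgeR on reads recovered from the scaled values gave the same counts, 0 at an adjusted and 1 at an unadjusted p below 0.05. The median log2 change was -0.22, against -0.08 over the table. The authors' deposited false discovery rate gave 29.5% lower, and with libraries centred on their median 6.82% were higher and 47.7% lower. The lowest value was at Mrps23, a mitochondrial ribosomal protein gene, with 148.35 and 152.86 reads at day 0 and 110.92 and 95 at day 6 (-0.55 ± 0.14, limma adjusted p = 0.0012).

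RNA from genes at the lost regions rose. Of the 781 genes, 632 passed the filter on low counts in the 2019 series. By edgeR's quasi-likelihood test (Benjamini-Hochberg adjusted p below 0.05 over 13593 genes), 543 of them were higher at day 6 than at day 0 (85.9%, against 41.4% of all genes tested) and 39 were lower (6.17%, against 36.6%). Their median log2 change was 2.73, against 0.09 over all genes. Genes of the other table regions that neither gained nor lost stood between, with 56.0% higher and 24.6% lower, and of the 54 tested genes of regions that gained the mark 2 were higher and 52 lower. Genes that passed the filter only through their later levels had to differ, so these counts describe the tested genes and not all 781, of which 29 had no read in any 2019 library. In bulk samples, fewer cells of a type and less RNA per cell cannot be told apart.

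The rise was already there at day 3, and it was seen again in the 2020 series. At day 3, 513 of the 632 genes were higher than at day 0 (81.2%, against 37.6% of all genes) and 33 were lower (5.22%, against 33.8%), and 493 were higher at both days. Between days 3 and 6, 340 rose further (53.8%, against 29.4%) and 119 fell (18.8%, against 27.9%). In 2020, 660 genes were tested, and 509 were higher at day 6 (77.1%, against 36.0% of 14760 genes) and 49 lower (7.42%, against 34.8%), with a median of 1.99. That comparison has 1 library at day 0. Of the 620 genes tested in both series, 475 were higher in both, 24 were lower in both, and 16 were called in opposite directions. By size of loss, at a log2 ratio of -1 or less 100 of 109 tested genes were higher (91.7%) and 1 was lower, at -1 to -0.8 107 of 121 were higher (88.4%) and 7 lower, and at -0.8 to -0.6 336 of 402 (83.6%) and 31. The difference between these bands, which divide the ratio that chose the regions, was not tested.

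**Figure D4:**
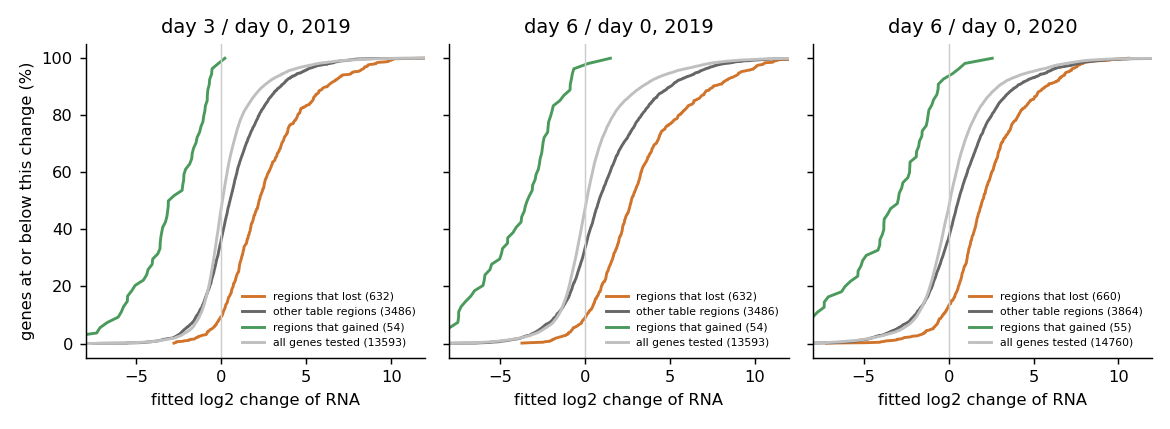
Cumulative distribution of fitted log2 changes in RNA (x axis) as percent of genes tested (y axis), for day 3 and day 6 of the 2019 series and day 6 of the 2020 series, each against day 0. Genes of regions that lost H3K27me3 (orange) lie to the right of those of other table regions (dark grey) and of all genes (light grey), and genes of regions that gained it (green) to the left; medians at day 6 of 2019 were 2.73, 0.81, 0.09 and -3.34.

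Genes that handle retinoic acid rose together. The list used for this pathway has 23 genes, 8 of them in lost regions: Cyp26a1, Cyp26b1 and Cyp26c1 (enzymes that degrade retinoic acid), Dhrs3, Stra6 (the cell surface receptor for retinol uptake), Rxra (a nuclear receptor that partners the retinoic acid receptors), Meis1 and Meis2. In 2019 all 7 that could be tested were higher at day 6, against 41.4% of all genes tested. Those near silent at day 0 passed the filter through their later levels and had to differ. Over the whole list 16 of 21 tested were higher and 3 lower. Meis2 was listed at 0 reads in every library and was not tested.

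Cyp26b1 was at 1.13 and 0.469 CPM at day 0, 699 and 694 CPM at day 3, and 630 and 593 CPM at day 6 (log2 change at day 6 of 9.72 ± 0.15 SE, edgeR adjusted p = 1.89e-13). Cyp26a1 was at 1.93 and 0.75 CPM at day 0, then 1340 and 1280 CPM, then 763 and 730 CPM (9.28 ± 0.16, edgeR adjusted p = 2.98e-13). Both were near silent at day 0 and among the strongly expressed genes from day 3. Dhrs3 had no read at day 0, 5.50 and 6.75 CPM at day 3 and 5.69 and 6.58 CPM at day 6, at least 34.3-fold higher (against a floor of 3 reads over the day 0 group). It had the second-lowest H3K27me3 ratio and the largest H3.3 rise, yet its RNA stayed low. Stra6 went from 1.29 and 0.375 CPM to 211 and 226 CPM (8.24 ± 0.19). Rxra went from 27.8 and 28.2 CPM to 128 and 131 CPM (2.21 ± 0.09).

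Of the 39 HOX genes, 32 were tested in 2019. At day 6, 30 were higher (against 41.4% of all genes tested), 1 was lower and 1 was not called. In 2020, 33 of 36 tested were higher (against 36.0% of all genes tested), and none of the other 3 was called lower. HOX genes near silent at day 0 passed the filter through their later levels and had to differ, so these counts are a description. Hoxa5 was at 0.321 and 0.281 CPM at day 0, 194 and 186 CPM at day 3 and 322 and 337 CPM at day 6 (10.07 ± 0.16, edgeR adjusted p = 1.89e-13). Hoxb2 was at 0.482 and 0.281 CPM, then 204 and 201 CPM, then 200 and 185 CPM. Hoxb1 and Hoxd1, at the paralogue 1 end of their clusters, were lower at day 6 than at day 3. Hoxb1 went from 0.161 and 0.0937 CPM to 138 and 130 CPM and back to 12.9 and 14.4 CPM. Between days 3 and 6, 24 of the 32 HOX genes rose, Hoxa9 by 2.12 and Hoxb9 by 2.24 among them, and 5 fell (edgeR adjusted p below 0.05 for each). Among the 5, Hoxb1 fell by 3.29, Hoxc13 by 1.78, Hoxd13 by 1.73 and Hoxd1 by 1.07 on the log2 scale.

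Genes at the far end of the clusters differed. Hoxc13 was at 2.73 and 3.84 CPM at day 0 and at 0.369 and 0.914 CPM at day 6 (-2.44 ± 0.43, edgeR adjusted p = 0.000194). Hoxd13 was at 0.482 and 1.12 CPM at day 0 and 0.886 and 0.914 CPM at day 6 (0.03, edgeR adjusted p = 0.955). Hoxc11, Hoxc12 and Hoxd12 passed the filter in neither series. Loss of H3K27me3 was measured over each whole cluster region and was not resolved by gene.

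**Figure D5:**
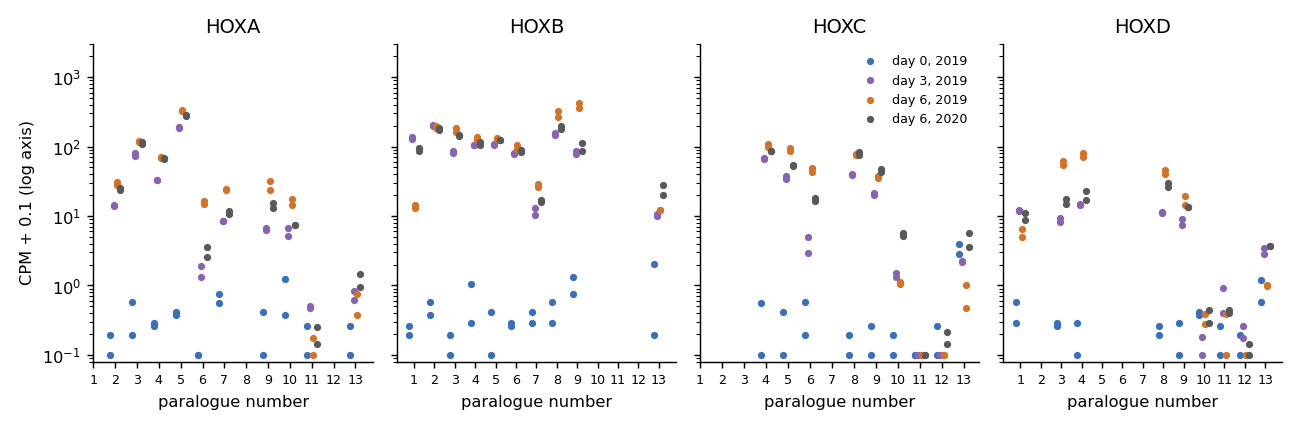
RNA of HOX genes as CPM + 0.1 on a log axis, by cluster and paralogue number, 1 point for each library; blue is day 0, purple day 3 and orange day 6 of the 2019 series, and grey day 6 of 2020. Paralogues 2 to 9 mostly rise from under 1 CPM to far higher levels, Hoxb1 is higher at day 3 (138 and 130 CPM) than at day 6 (12.9 and 14.4 CPM), and of paralogues 10 to 13 Hoxa10 and Hoxb13 are the highest at day 6.

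Other regulators of lineage followed. Of the 16 non-HOX homeobox genes in lost regions 14 were tested in 2019, and 12 were higher, against 41.4% of all genes tested, the share to read beside each list count here; over the whole list 35 of 44 were higher and 4 lower. Lhx1, needed for head and kidney development, had no read at day 0, 11.6 and 12.5 CPM at day 3 and 132 and 120 CPM at day 6, at least 715-fold higher. In mesoderm genes 7 of 7 tested rose (20 of 25 over the whole list, with 3 lower). Tcf21 went from no read to 57.2 and 68.3 CPM (at least 350-fold), and Osr1, an early kidney and heart factor, from no read to 25.3 and 26.0 CPM (at least 144-fold). In neural progenitor genes 6 of 8 tested rose and 2 fell (23 and 4 of 29 over the whole list). Nr2f2, an orphan nuclear receptor, went from 0.643 and 0.187 CPM to 352 and 374 CPM (9.95 ± 0.18). Zic2 and Zic5, zinc finger factors of early neural plate, were the ones that fell.

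Endoderm genes rose in 8 of 8 cases (22 of 25 over the whole list, with 2 lower). The 41.4% of all genes tested that were higher is the share to read beside the list counts of this paragraph too. Gata6, a key factor of primitive endoderm, went from 1.13 and 0.375 CPM to 104 and 112 CPM (7.34 ± 0.20), and Col4a1, a basement membrane collagen, rose by 6.40 ± 0.10. Of the 9 imprinted genes 8 were tested, and 6 rose and 1 fell (19 and 2 of 24 over the whole list). Igf2, a fetal growth factor whose region lay just inside the threshold, went from 8.36 and 10.5 CPM to 1470 and 1580 CPM (7.30 ± 0.11). Of the PRC1 genes, Bcor, Bmi1 and Cbx8 lay in lost regions and rose, Bmi1 by 3.52 ± 0.10 and Bcor by 1.44 ± 0.08. Over the whole PRC1 list 11 of 20 tested rose and 6 fell. In smaller groups 4 of 4 tested axon guidance genes rose, as did 3 of 3 of BMP, TGF-beta and hedgehog signalling, 3 of 3 of neural crest, 2 of 2 FGF genes, 2 of 2 trophoblast genes, and 2 of 4 Wnt genes. Over the whole lists, axon guidance had 32 higher and 4 lower of 38, BMP, TGF-beta and hedgehog signalling 12 and 7 of 22, neural crest 8 and 5 of 15, FGF 7 and 6 of 15, trophoblast 7 and 4 of 13, and Wnt 14 higher of 17. No gene of the lists for PRC2 and H3K27 demethylases, pluripotency, endothelium and blood, or germline lay at a lost region. These lists hold 17, 25, 19 and 16 genes. Of all matched gene symbols 3.24% lay at lost regions, a share at which lists this short can hold none.

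A small set of genes lay in regions that lost H3K27me3 and fell in RNA. Dnmt3b was at 357 and 406 CPM at day 0, 62.3 and 54.6 CPM at day 3 and 28.9 and 29.3 CPM at day 6 (-3.71 ± 0.10, edgeR adjusted p = 4.08e-12), and it fell by 4.06 in 2020. Phlda2 went from 74.1 and 76.9 CPM to 7.09 and 9.69 CPM (-3.19 ± 0.13). Zic5 went from 9.48 and 12.1 CPM to 1.70 and 2.56 CPM (-2.38 ± 0.29). Both days are apart in each, and all 3 fell again in 2020. Dnmt3b and Phlda2 thus had less RNA at day 6, with less H3K27me3 and less H3.3 in their regions. The H3K27me3 region of Phlda2 spans 206720 bp and is shared with Cdkn1c, and Zic5 shares its region with Zic2. In these shared regions the loss was not resolved by gene.

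The RNA of the edited lines was compared within 2020 at these genes. At day 6, H3.3K27A cells had 17 of 660 lost-region genes higher than wild type (2.58%, against 1.13% of all genes) and 4 lower (0.606%, against 0.908%). Of the 17, 6 were HOX genes: Hoxa10, Hoxa9, Hoxb13, Hoxd1, Hoxc8 and Hoxc9. Hoxa10 was at 35.6 and 36.5 CPM in H3.3K27A and 7.32 and 7.41 CPM in wild type (2.29 ± 0.14, edgeR adjusted p = 0.000137), with 11.8 and 10.2 CPM in the knockout. Hoxa9 was at 65.5 and 63.5 CPM against 15.5 and 12.8 CPM (2.19 ± 0.28, edgeR adjusted p = 0.00788). The H3.3K27A libraries were the highest of that day for both genes. Zic2 was at 13.5 and 13.5 CPM against 5.97 and 4.84 CPM, while Vipr2 and Adra2a, receptor genes, were lower by 1.38 and 0.92 on the log2 scale. The count depended on the libraries in the shared fit. Without replicate 1 or 2 of the knockout at day 6, which are not part of the comparison, 15.3% or 16.0% were higher and 10.0% or 9.89% lower. Without a library of the 2 groups compared, 0.303% to 0.455% were higher and 0% lower, and without one of the day 0 knockout or day 0 H3.3K27A libraries 1.51% or 1.52% were higher and 0.151% to 0.303% lower.

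At day 0, H3.3K27A had 9 lost-region genes higher than the 1 wild-type library (1.36%, against 0.569% of all genes) and 21 lower (3.18%, against 1.17%). Hoxa10 was among the 9, at 4.23 and 3.74 CPM against 1.64 CPM (1.28). Sema6a, a semaphorin, was the lowest of the 21 at 2.48 and 2.76 CPM against 21.1 CPM. Without replicate 1 or 2 of the knockout at day 6 the shares were 5.91% or 6.09% higher and 12% or 11.9% lower. Without 1 or the other H3.3K27A day 0 library they were 0.454% or 0.303% higher and 1.21% lower. Leaving out a library of H3.3K27A or wild type at day 6, or replicate 1 of the knockout at day 0, gave 0.455% to 0.908% higher.

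The H3.3A knockout at day 6 had 55 lost-region genes higher than wild type (8.33%, against 6.98% of all genes) and 53 lower (8.03%, against 4.42%). Of the 8 endoderm genes 6 were higher, Col4a1 among them at 13900 and 9120 CPM against 3290 and 3890 CPM (1.68). The endoderm list as a whole moved with it, as given above, and its part in these counts was not tested. Osr1 was lower at 18 and 18.5 CPM against 45.7 and 52.3 CPM (-1.42, edgeR adjusted p = 0.00048). The knockout duplicates differ, and without replicate 2 of the knockout 22.5% were higher and 33.9% lower, while without replicate 1 the lower share was 13.6%. Without replicate 1 or 2 of wild type at day 6, 1.36% or 1.97% were higher and 1.06% or 1.36% lower, and without replicate 1 or 2 of H3.3K27A at day 6, or replicate 1 of the knockout at day 0, 3.95%, 3.79% or 5.30% were lower.

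Set against the knockout at day 6, H3.3K27A had 126 lost-region genes higher (19.1%, against 9.03% of all genes) and 71 lower (10.8%, against 9.64%). HOX genes were among the higher: Hoxa9 by 2.06, Hoxc10 by 1.83, Hoxa10 by 1.71, Hoxc8 by 1.37, Hoxd1 by 1.32, Hoxc9 by 0.92 and Hoxa7 by 0.73. These are 7 of the 36 HOX genes tested, a share near the 19.1% of all lost-region genes. Of the endoderm genes 6 were lower, Col4a1 by 2.10 and Col4a2 by 2.12 on the log2 scale. Dlk1, an imprinted Notch-family ligand, was at 487 and 417 CPM in H3.3K27A against 137 and 144 CPM in the knockout. Without replicate 2 of the knockout at day 6 37.3% were higher and 21.0% lower, and without replicate 1 of it 16.4% were lower. Without replicate 1 or 2 of H3.3K27A at day 6, 6.68% or 8.65% were higher and 3.64% or 4.70% lower.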

How the data were processed

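The data are ChIP and polyA RNA libraries of wild-type mESC at day 0 and day 6 (RNA also at day 3) and RNA of 2 edited lines. Reads were aligned with STAR 2.5.2a to mm10, and HTSeq, MACS2, DiffBind, DESeq2 and deepTools are also named, per the submitters' processing notes. The deposited region tables give signal as reads scaled to the smallest library (100% were whole multiples of 1 read's value within 0.1 read), with the authors' log2 fold and false discovery rate (adjusted p-value), whose method is not given in the sources used here. Peaks were called for each library with MACS2 2.2.6 without a control, at p 0.01, a minimum length of 1000 and a gap of 5000, per the file headers, which also give each peak's fold enrichment as a ratio. The deposited filtered peak lists hold positions only, and the filter is not given in the sources used here. RNA files hold gene counts by the authors; reads outside genes (22.5% to 50.8%) were left out, and the counting's strand setting is not given in the sources used here, so overlapping and antisense genes such as Hoxb5os cannot be told apart.

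The 713 regions, the gene lists and the tests were chosen with earlier results of these data known. Genes were taken where an annotated start (GENCODE vM21, GRCm38) lay in or within 1000 bp of a region. Of 24465 symbols 24068 were matched, 487 by an older name listed in RefSeq. A region had a peak where filtered peaks of both duplicates overlapped it by 1 base or more. RNA was tested with edgeR 4.0.16 (TMM, low-count filter, quasi-likelihood, all groups of a series in 1 fit) in 2 series fitted apart, and H3.3 and H3 with limma 3.58.1 (trend) on log2(scaled reads + 1), adjusted p below 0.05 by Benjamini-Hochberg. Standard errors come from the moderated statistics. Simulated counts for day 6 against day 0 held 100 genes changed 2-fold and 100 changed 4-fold, all with a mean above 1 CPM. EdgeR recovered 92% and 100% of them among 13188 genes of 2019, and 72% and 99% among 14263 genes of 2020. Recovery of genes with lower counts was not tested. Named regions were the 12 lowest ratios, the 6 highest day 0 totals of scaled reads, and 3 regions either side of the threshold. Named genes were the 10 largest rises and 8 largest falls in each comparison, list genes, and genes with H3.3K27me3 peaks at both days. The text gives a part of these regions and genes. Smaller-effect H3.3 regions were named after their values were seen. Where labels do not say that duplicates were separate cultures, p-values cover no more than the scatter of these libraries, which may be technical. Alternatives were DESeq2 1.42.0, other filters, thresholds, pseudocounts and gene windows, libraries left out, and a replicate block. A few genes are not reported here.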

Additional observations from a re-analysis of the deposited data

Results flagged for a closer look

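In all, 5 named genes of lost regions changed in one direction in 2019 and in the other in 2020, with every day 6 library on its side of every day 0 library in each series; the difference between the series was not tested, the 2 series were counted and fitted apart, and day 0 of 2020 is 1 library. Tnc, the extracellular matrix protein tenascin C, had a log2 change at day 6 of 5.86 in 2019 (0.482 and 0.469 CPM to 27.5 and 28.9 CPM) and -3.12 in 2020 (159 CPM to 20.1 and 16.2 CPM). Of the 5 genes it had the widest gap between the series at day 0. Mapt, the neuronal microtubule protein tau, had 2.63 in 2019 and -1.14 in 2020, and Celf4, a neuronal RNA-binding protein gene, 1.53 and -0.72. Hoxc13 had -2.44 in 2019 and 1.59 in 2020 (1.48 CPM to 3.43 and 5.54 CPM). Aloxe3, an epidermal lipoxygenase gene, had -1.82 and 2.04. Whole marker lists also went different ways: of the neuron terminal genes 18 of 21 tested were higher at day 6 in 2019 and 4 of 22 in 2020, with summed levels at day 6 of 1830-2140 CPM and 302-537 CPM, and of the fibroblast and mesenchyme genes 17 of 20 were higher in 2019 and 7 of 20 in 2020, with summed levels at day 0 of 1530-1900 CPM and 3360 CPM. Syt1 was listed at 0 in every library. The part of these lists in the 5 genes was not tested.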

How the results depend on the processing

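Without 1 library the share of lost-region genes with more RNA at day 6 was 83.1% to 85.4% in 2019 and 72.9% to 80.5% in 2020, and at day 3 76.7% to 80.7%; the share lower was 4.71% to 6.05%, 6.21% to 8.98% and 3.58% to 5.26%, and between days 3 and 6 46.3% to 56.1% rose and 13.5% to 21.4% fell. DESeq2 gave 69.0% higher at day 6, 71.7% at day 3 and 70.7% in 2020, and no filter 73.8%, 69.8% and 68.4%. DESeq2 lowered the share of falls to 3.99% (day 6), 3.39% (day 3) and 11.9% (day 6 against day 3), and gave 2.35% higher and 5.38% lower for H3.3K27A at day 0 and 4.49% higher at day 6. Regions at -1 or less had 0.917% falls at day 6, 1.83% at day 3 and 4.46% in 2020, 0.893% higher in H3.3K27A at day 0, 4.46% higher and 0% lower at day 6, and 13.4% higher in the knockout. No filter gave 5.08% lower for H3.3K27A at day 0, and 4.55% higher and 1.20% lower at day 6. Leaving out 1 library moved the H3.3K27A and knockout counts most: H3.3K27A at day 0 ran from 0.303% to 6.09% higher and 1.21% to 12% lower, at day 6 from 0.303% to 16.0% and 0% to 10.0%, the knockout from 1.36% to 22.5% and 1.06% to 33.9%, and H3.3K27A against the knockout from 6.68% to 37.3% and 3.64% to 21.0%. The cause of these shifts was not tested.

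The labels do not say that replicate numbers pair samples (correlations of same-numbered samples' deviations were 0.123, -0.0592 and 0.0673 in 2019, and from -0.605 to 0.30 over 10 pairs of groups in 2020, with 0.30 for H3.3K27A and wild type at day 6 and 0.19 for H3.3K27A at day 0 and wild type at day 6). With a replicate block, H3.3K27A had 0.455% higher at day 0 and 1.67% higher and 0.152% lower at day 6, the knockout 5.00% lower, and no other share moved by over 1.5 times. Knockout numbers at day 6 ran against wild type (-0.605) and H3.3K27A (-0.392); with them crossed, a choice made after seeing the data, 11.7% were higher and 11.1% lower than wild type, and 21.4% and 13.5% in H3.3K27A against the knockout.

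The number of regions was 99 at a threshold of -1, 352 with centred ratios, 656 with a pseudocount of 10, 709 with the authors' false discovery rate, and 539 to 997 without 1 library. H3.3K27me3 peaks at day 0 and day 6 were at 82.0% and 18.4% in either duplicate, 90.9% and 17.3% with all MACS2 calls, 2.10% at day 6 where peaks had to cover 50% of the region, and 61.6% to 74.2% and 7.15% to 15.8% in single duplicates. H3.3 shares ran from 19.4% to 33.7% higher and 24.5% to 42.9% lower without 1 library. For H3, centring gave 6.82% higher, the authors' false discovery rate 29.5% lower, and single libraries left out 43.2% to 54.5% lower and 0% higher. Of 2786 single-gene alternatives over 252 gene results, 2735 kept direction and side of the threshold, 36 lost the call, 15 gained one and 0 reversed. H3.3K27me3 at day 6 had the lowest depth, yet the filtered lists held more peaks at day 6 (26215 and 14483, with 6504 in both duplicates) than at day 0 (14796 and 12690, with 5142 in both); the part of depth in the peak shares was not tested. Every test rests on duplicates or fewer.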

Other observations

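Some lost-region genes changed mainly after day 3 of the 2019 series. Pou3f2, a neural factor also known as Brn2, was at 1.78 and 3.3 CPM at day 3 and 170 and 142 CPM at day 6 (log2 change of 5.92, edgeR adjusted p = 2.45e-10). Neurog1, a proneural factor of sensory neurons, went from 2.19 and 2.55 CPM to 98.0 and 89.2 CPM (5.30). Nkx1-1, a homeobox gene, had no read at day 3 and 2.81 and 3.11 CPM at day 6. Evx1, at the end of the HOXA region, went from 0.0809 and 0.150 CPM to 7.61 and 4.57 CPM (5.59).

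Others were higher at day 3 than at day 6. Six3, a factor of anterior forebrain and eye, was at 0.971 and 1.20 CPM at day 3 and at 0 and 0.183 CPM at day 6. Hesx1, a factor of anterior neural plate and pituitary, went from 1.70 and 1.5 CPM to 0.148 and 0.274 CPM (-2.90, edgeR adjusted p = 0.00048). Neither passed 1.70 CPM in a 2019 library. Myl7, an atrial myosin light chain, went from 3.56 and 3.15 CPM to 0.591 and 0.731 CPM.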
